A study of Homo sapiens with 8 samples.

Results

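The genes described here are 41 named genes of the ATF4 pathway in KCL-22 cells. This established human line was derived from chronic myeloid leukemia in blast crisis and depends on the fusion kinase BCR-ABL. They were taken by symbol from the 31402 entries of the deposited expression table, and each symbol had 1 entry. Sorted by role, 7 are transcription factors, 5 are stress effectors, 12 are enzymes of amino acid and one-carbon synthesis, 7 are amino acid transporters and 10 charge or export transfer RNA. All 41 passed the filter used for testing, an FPKM averaging 1 or more across all 8 libraries, as did 11843 genes in all. FPKM are fragments scaled by transcript length and by the size of the library.

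Every culture carried ClonTracer, a library of DNA barcodes delivered by lentivirus that tags the descendants of single cells, and total RNA was sequenced from 8 libraries. The vehicle population (n = 1) was kept in 0.1% DMSO for 7 days. The 3 resistant populations, each 1 library, had been selected with 2.5 µM imatinib (27 days), 0.3 µM nilotinib (27 days) and 2.5 µM GNF-2 (21 days). Both imatinib and nilotinib bind the ATP site of the ABL kinase, whereas GNF-2 is allosteric and binds its myristate pocket. Clones 1, 2 and 4 were sorted as single cells from a GNF-2-resistant culture without ever meeting a catalytic inhibitor, and then expanded. Clone 3 was sorted from an imatinib-resistant culture and never met an allosteric one. Clones 1 and 2 resist GNF-2, Clone 3 resists imatinib and nilotinib, and Clone 4 resists all 3 compounds. Resistance therefore gives 4 groups: vehicle (n = 1), catalytic-inhibitor resistant (imatinib and nilotinib populations and Clone 3, n = 3), GNF-2 resistant (GNF-2 population and Clones 1 and 2, n = 3) and resistant to all (Clone 4, n = 1). A clone stands for 1 cell's descendants, and the labels do not say that the sequenced population is the culture it was sorted from. Whether inhibitor was present when the clones were harvested is also not stated. Separate cultures for the libraries within a group are not stated either, so p-values measure only the spread between these libraries.

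ATF4 is the transcription factor at the centre of the integrated stress response. Kinases that sense lack of amino acids or heme, unfolded protein in the endoplasmic reticulum or double-stranded RNA phosphorylate the initiation factor eIF2. This slows translation in general and lets ribosomes reach the ATF4 coding frame. ATF4 is thus controlled largely at translation, and its activity is usually read from its target genes. Those targets supply amino acids by synthesis and import, load them onto transfer RNA, and feed back on the response.

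A common target sequence, the C/EBP-ATF response element, was searched as TGATGNAA on both strands in RefSeq promoter windows (GRCh38.p14, 250 bases before to 50 after each transcription start). Windows were found for 35 members, and none was available for NUPR1, PSPH, SHMT2, PYCR1, GPT2 and SLC7A11. The letters occurred in 15 of the 35 (42.9%), against 2.58% of the 9257 tested genes that had a window, and in 15 of 56 member windows (26.8%) against 3.62% of all 35116 windows. By role they were found in 6 of 10 charging genes, 4 of 6 transporters, 3 of 6 transcription factors, 1 of 8 synthesis enzymes and 1 of 5 effectors. The members were chosen as genes of the ATF4 pathway, so their share beside that of all genes is a description and not a test. A match of letters is a description of the window and not a shown binding site. The 7 windows of 30 bases printed next hold the match in capitals, written 5′ to 3′ on the strand of the gene, and were chosen because these genes recur in the results. They lie at chr19:33374060-33374089 (CEBPG, + strand), chr7:97872458-97872487 (ASNS, - strand), chr2:64989381-64989410 (SLC1A4, + strand), chr19:46784893-46784922 (SLC1A5, - strand), chr13:29595663-29595692 (SLC7A1, - strand), chr12:57488053-57488082 (MARS, + strand) and chr16:70289675-70289704 (AARS, - strand).
CEBPG: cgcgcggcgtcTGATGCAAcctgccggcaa
ASNS: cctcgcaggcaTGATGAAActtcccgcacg
SLC1A4: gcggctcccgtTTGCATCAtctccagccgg
SLC1A5: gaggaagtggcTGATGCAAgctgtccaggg
SLC7A1: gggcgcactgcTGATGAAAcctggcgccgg
MARS: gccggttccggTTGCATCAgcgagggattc
AARS: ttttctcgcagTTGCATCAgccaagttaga
TTGCATCA is TGATGCAA read on the other strand. In MARS and SLC1A4 the match began 4 and 7 bases upstream of the start, in CEBPG 42, in ASNS 68, in SLC1A5 97 and in AARS 187, and in SLC7A1 it began 8 bases downstream.

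Longer upstream sequence is shown for CHAC1 and PPP1R15A because their levels lay on opposite sides of the vehicle population in all 7 resistant libraries. The 250 bases before the start are chr15:40953221-40953470 for CHAC1 and chr19:48872171-48872420 for PPP1R15A, both on the + strand of GRCh38.p14. Capitals mark TTGCATCA in CHAC1, 209 bases upstream, and in PPP1R15A the cyclic AMP response element TGACGTCA, 58 bases upstream.
CHAC1: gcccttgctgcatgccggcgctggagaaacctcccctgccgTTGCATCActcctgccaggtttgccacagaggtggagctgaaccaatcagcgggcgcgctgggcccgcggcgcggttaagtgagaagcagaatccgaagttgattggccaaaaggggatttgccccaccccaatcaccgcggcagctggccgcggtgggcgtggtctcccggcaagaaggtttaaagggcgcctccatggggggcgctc
PPP1R15A: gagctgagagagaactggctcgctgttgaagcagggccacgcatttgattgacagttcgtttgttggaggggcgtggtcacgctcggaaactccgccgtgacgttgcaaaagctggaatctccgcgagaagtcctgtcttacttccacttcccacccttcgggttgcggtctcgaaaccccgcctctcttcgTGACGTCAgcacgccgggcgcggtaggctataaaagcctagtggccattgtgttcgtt
TGACGTCA reads the same on both strands. Of the 35 members with a window PPP1R15A alone held it, against 3.87% of tested genes with a window, and no member held both elements.

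Libraries were of similar scale: the FPKM of a library summed to between 497775 and 583520, and median-ratio factors lay between 0.94 and 1.09. Depth, estimated roughly from the value of 1 fragment in 458 intronless genes, was lowest for the GNF-2 population, near 19400000 fragments, and highest for Clone 1, near 39700000, or 19.4 to 39.7 fragments per kilobase at an FPKM of 1. Of 12 identity genes of the line, BCR, ABL1, GATA2, LYL1 and PTPRC were at 1 or more in all 8 libraries, whereas KIT and MPO were under 1 in all. SPI1 was listed at 0 in Clones 3 and 4, and CD34 reached 12.2 only in Clone 4. GATA1 was at 8.55 in Clone 2 and at most 1.38 elsewhere. TAL1 was listed at 0 in Clone 1, against 16.1 to 31.9 elsewhere, and CD33 lay between 0.157 and 3.35. All 7 erythroid markers were under 1 in every library. The 5 T-cell markers summed to 34.0 in vehicle, of which CD3D made 32.0, and to between 0.30 and 12.9 in the other 7 libraries, and 3 of the 5 were under 1 in all. The 5 fibroblast markers summed to 5.55 in Clone 2, of which COL1A2 made 4.61, and to at most 0.90 elsewhere, with DCN listed at 0 in all. The B-cell genes CD79A and CD79B were present, at an FPKM of 17.4 to 98.9 and 18.3 to 53.3, while PAX5 was near 0 and MS4A1 was listed at 0 in all 8 libraries. KRT8 and KRT18 carried the 4 epithelial markers (sum 33.7 to 125.0), with EPCAM and CDH1 near 0, and the sum was highest in Clone 2. Lower levels per cell and fewer cells of a type cannot be told apart in these bulk libraries, and the part of these markers in the results was not tested.

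**Figure D1:**
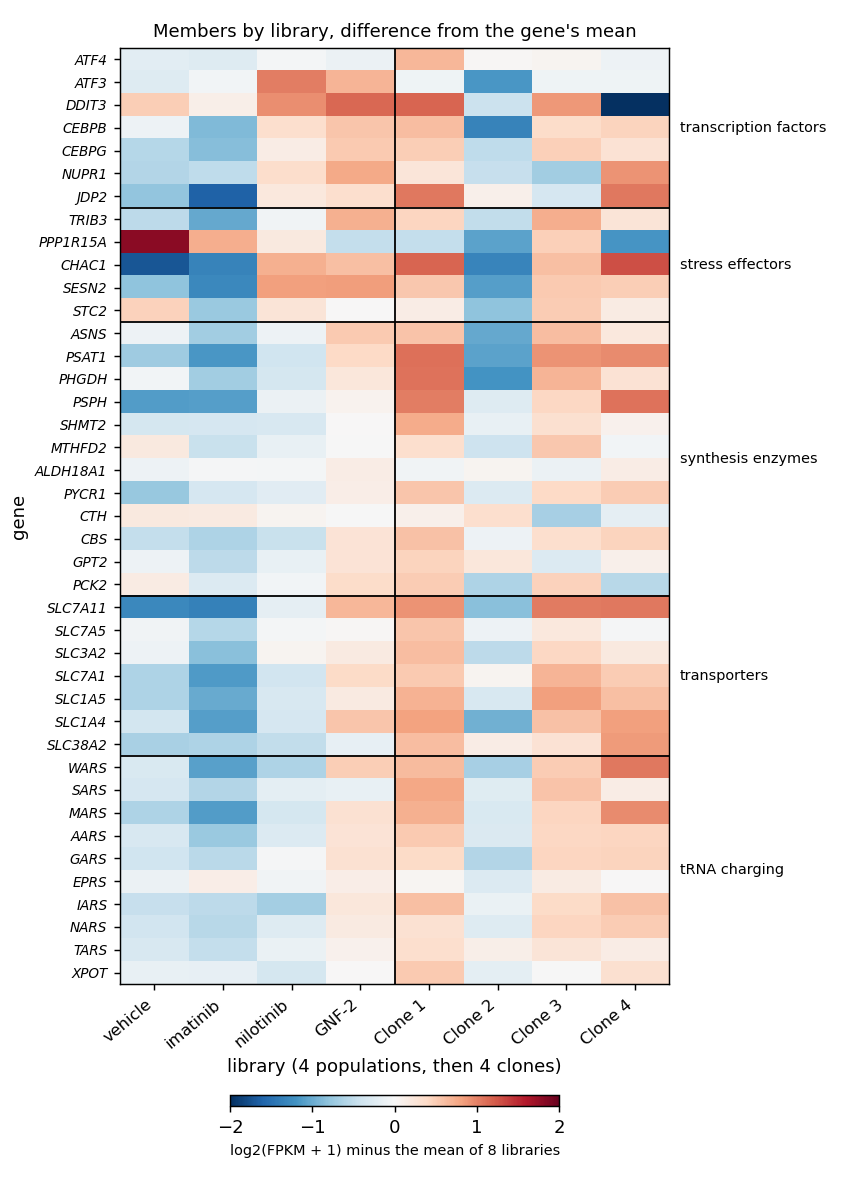
Level of the 41 genes (rows, by role) in each of the 8 libraries (columns), as log2(FPKM + 1) minus the gene's mean over the 8 libraries; colours stop at 2 and -2, which cuts off DDIT3 in Clone 4, listed at 0. The vehicle and imatinib populations and Clone 2 are mostly blue (medians of -0.34, -0.61 and -0.32), and the nilotinib population is paler (-0.12). The GNF-2 population and Clones 1, 3 and 4 are mostly red.

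ATF4 itself varied little. Its mRNA (chromosome 22, 39916568 to 39918691, GRCh37, as are the gene positions that follow) had an FPKM of 444 in the vehicle population, 429 in the imatinib, 503 in the nilotinib and 473 in the GNF-2 population. It was 813 in Clone 1, 520.3 in Clone 2, 534 in Clone 3 and 479 in Clone 4. Clone 1 stood above the rest and the other 7 libraries lay within a narrow band. Its range of 0.92 on log2(FPKM + 1) was the narrowest of the 7 transcription factors.

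The factors that act with ATF4 varied more. ATF3, a stress-induced repressor and activator, was at 9.54 in vehicle, 11.1 in imatinib, 24.6 in nilotinib, 19.1 in GNF-2, 10.9 in Clone 1, 4.59 in Clone 2, 10.9 in Clone 3 and 10.9 in Clone 4. The nilotinib and GNF-2 populations were the 2 highest, and Clone 2 was the lowest. CEBPG, which pairs with ATF4 on DNA, had 17.8 in vehicle and 14.5 in the imatinib population, against 30.1 in nilotinib and 39.1 in GNF-2. In the clones CEBPG was 38.3, 18.6, 37.8 and 33.2 in the order 1 to 4, so that vehicle, imatinib and Clone 2 formed the low end. JDP2, a Jun-dimerizing repressor, was scarce, with 1.57, 0.443, 4.102 and 4.57 in the vehicle, imatinib, nilotinib and GNF-2 populations. Its highest values were 8.16 in Clone 1 and 8.25 in Clone 4, whereas Clone 2 (3.73) and Clone 3 (2.52) were below the nilotinib and GNF-2 populations. CEBPB, another partner, ranged from 6.81 in Clone 2 to 29.3 in Clone 1. NUPR1, a small stress-induced chromatin protein, never passed 2.58.

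DDIT3, also known as CHOP, drives the death-promoting arm of the response. It was at 26.3 in vehicle, 20.1 in imatinib, 36.1 in nilotinib, 42.3 in GNF-2, 42.5 in Clone 1, 13.5 in Clone 2 and 34.4 in Clone 3, and was listed at 0 in Clone 4. No fold is given against that 0. In the deposited table DDIT3 (chromosome 12, 57910370 to 57914300) shares 965 bases, 57910370 to 57911334, with the end of MARS, the methionine synthetase gene. MARS had its highest value, 106, in the same Clone 4, and the part of this overlap in the DDIT3 and MARS values was not tested.

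Among the stress effectors, CHAC1 and SESN2 were low in the same 3 libraries, and PPP1R15A was highest in one of them, the vehicle population. CHAC1 (chromosome 15, 41245635 to 41248717), which degrades glutathione, was at 5.93 in vehicle, 7.91 in imatinib, 36.02 in nilotinib and 33.1 in GNF-2. In Clones 1, 3 and 4 CHAC1 had 49.9, 33.1 and 53.99, and in Clone 2 it had 8.08. The 8 libraries thus fell into 3 near the vehicle level and 5 from 5.58-fold (GNF-2 population) to 9.11-fold (Clone 4) above vehicle, with none between. SESN2, an inhibitor of the growth kinase complex mTORC1, showed the same 3 low libraries at 3.75 (vehicle), 2.38 (imatinib) and 2.86 (Clone 2). Its other values were 13.6 in nilotinib, 13.8 in GNF-2, 11.05 in Clone 1, 10.9 in Clone 3 and 10.6 in Clone 4.

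TRIB3, a pseudokinase that restrains ATF4 and AKT, had 25.99 in vehicle, 18.1 in imatinib, 36.1 in nilotinib, 62.4 in GNF-2, 51.7 in Clone 1, 26.6 in Clone 2, 63.3 in Clone 3 and 45.3 in Clone 4. The GNF-2 population and Clone 3 were the highest and the imatinib population the lowest. PPP1R15A (chromosome 19, 49375648 to 49379319), known as GADD34, guides a phosphatase to eIF2 and ends the response. It was at 333 in vehicle, then 158 in imatinib, 108 in nilotinib and 68.2 in GNF-2, with 67.7, 44.5, 132 and 41.5 in Clones 1 to 4. Vehicle was the highest library, and each of the 7 resistant ones was at least 2.11-fold lower. The libraries selected with GNF-2, Clone 4 included, were all below the imatinib and nilotinib populations and Clone 3. STC2, a secreted glycoprotein, lay between 10.1 in Clone 2 and 26.6 in Clone 3.

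**Figure D2:**
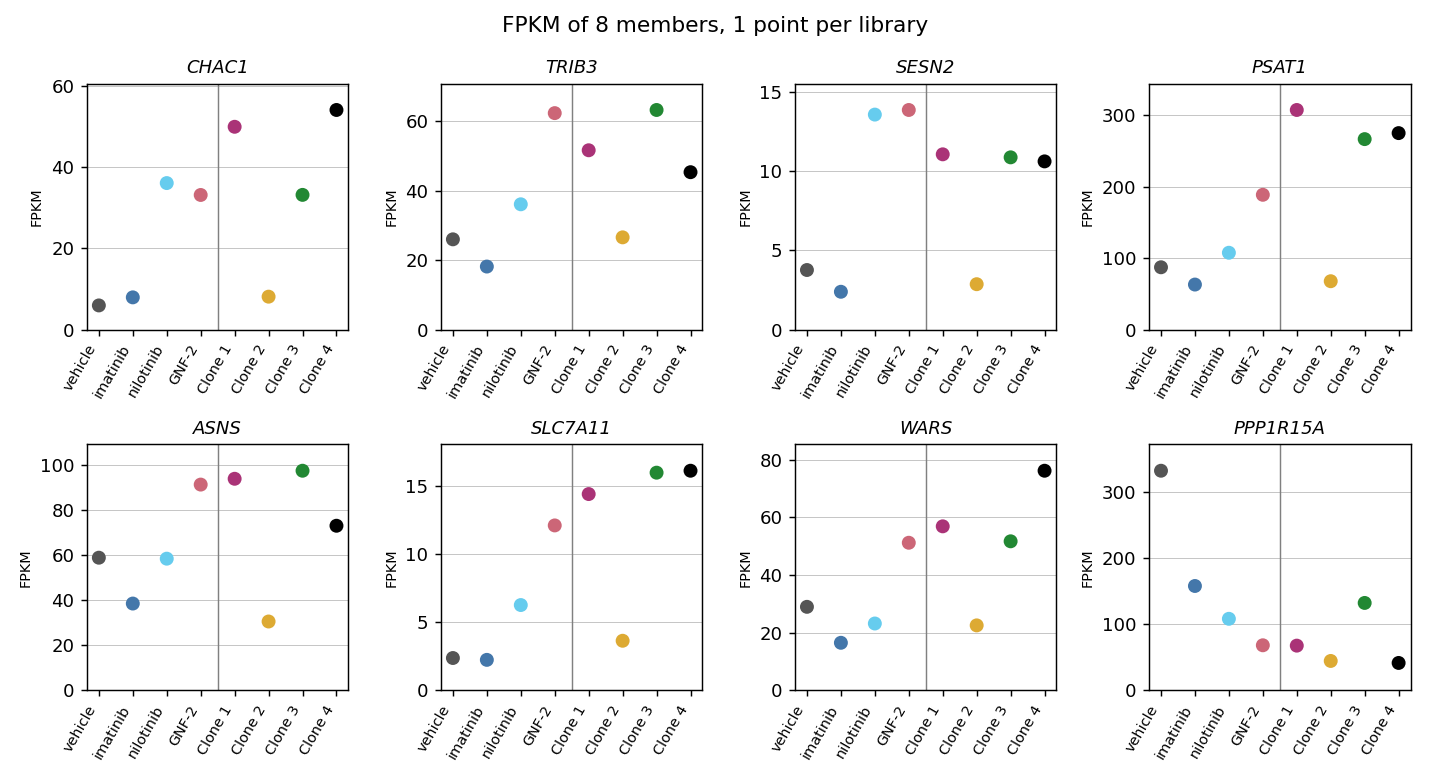
FPKM (linear axis from 0) of 8 genes, with 1 point for each library and the 4 populations left of the line in each panel. CHAC1 and SESN2 split into 3 low and 5 high libraries, SLC7A11 and PSAT1 are lowest in the imatinib population, and PPP1R15A is highest in vehicle, at 333.

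Of the synthesis enzymes, 3 form the pathway that makes serine from a glycolytic intermediate. PSAT1, its aminotransferase (chromosome 9, 80912058 to 80945009), had 87.3 in vehicle, 63.04 in imatinib, 108 in nilotinib, 189 in GNF-2, 308 in Clone 1, 67.7 in Clone 2, 267 in Clone 3 and 275 in Clone 4. Clones 1, 3 and 4 were at least 3.06-fold above vehicle, and the imatinib population and Clone 2 were below it. PHGDH, the first enzyme of the route, was at 129, 82.9, 105 and 157 in the vehicle, imatinib, nilotinib and GNF-2 populations. In Clones 1 to 4 PHGDH was 287, 58.3, 216 and 165, a gap of 4.92-fold between Clones 1 and 2.

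PSPH, the last enzyme, had 7.72 in vehicle, 7.87 in imatinib, 16.4 in nilotinib, 18.9 in GNF-2, 37.3 in Clone 1, 14.9 in Clone 2, 24.2 in Clone 3 and 39.1 in Clone 4. Vehicle and the imatinib population were lowest and Clones 1 and 4 highest. The PSPH interval in the table (chromosome 7, 56078743 to 56184090) spans CCT6A, SUMF2 and CHCHD2 and the gene has near-identical copies, so its level is uncertain. Of the mitochondrial folate enzymes that use serine, SHMT2 ranged from 101 (vehicle) to 217 (Clone 1), and MTHFD2 from 171 (imatinib) to 336 (Clone 3).

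ASNS, which makes asparagine and is a classical ATF4 target, was at 58.9 in vehicle, 38.5 in imatinib, 58.4 in nilotinib, 91.3 in GNF-2, 93.9 in Clone 1, 30.5 in Clone 2, 97.5 in Clone 3 and 73.05 in Clone 4. Clone 2 and the imatinib population were again the 2 lowest libraries. In the proline branch PYCR1, the last step, had 50.2, 67.7, 73.1 and 93.97 in the vehicle, imatinib, nilotinib and GNF-2 populations and 126, 70.8, 113 and 122 in Clones 1 to 4. Here vehicle was the lowest library, and Clone 2, the lowest clone, lay between the imatinib and nilotinib populations. ALDH18A1, the first proline step, hardly varied (58.9 to 70.7), with the narrowest range of all 41 genes, 0.26 on log2(FPKM + 1).

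For the transsulfuration enzymes, which make cysteine, CBS ranged from 40.5 (imatinib) to 94.7 (Clone 1). CTH was scarce, between 1.94 in Clone 3 and 4.89 in Clone 2, and was the only synthesis enzyme highest in Clone 2. GPT2, the mitochondrial alanine aminotransferase, had 35.7 in vehicle, 26.2 in imatinib, 34.5 in nilotinib and 31.6 in Clone 3, against 46.5 in the GNF-2 population, 52.4 in Clone 1, 44.8 in Clone 2 and 41.3 in Clone 4. All libraries of the GNF-2 lineage were thus above vehicle, and those selected with a catalytic inhibitor were below it. PCK2, which makes phosphoenolpyruvate in mitochondria, lay between 13.3 (Clone 2) and 30.2 (Clone 1).

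Among the 7 transporters the widest range was that of SLC7A11, which imports cystine in exchange for glutamate (chromosome 4, 139085247 to 139163503). It was at 2.37 in vehicle, 2.23 in imatinib, 6.26 in nilotinib, 12.1 in GNF-2, 14.4 in Clone 1, 3.63 in Clone 2, 15.97 in Clone 3 and 16.1 in Clone 4. The GNF-2 population and Clones 1, 3 and 4 were at least 5.11-fold above vehicle, and Clone 2 was 1.53-fold above it. SLC1A4, which carries neutral amino acids, had 15.5, 8.996, 15.9 and 30.3 in the vehicle, imatinib, nilotinib and GNF-2 populations, and 36.3, 10.04, 31.2 and 36.6 in Clones 1 to 4. SLC1A5, a glutamine carrier and the most abundant of the 7, followed with 183, 139, 225 and 318 in those populations and 457, 225, 499.5 and 428 in the clones. In both, the imatinib population was the lowest library and Clone 2 the lowest clone.

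SLC7A1, which imports arginine and lysine, was at 22.6 in vehicle, 15.5 in imatinib, 26.99 in nilotinib, 46.6 in GNF-2, 51.5 in Clone 1, 36.7 in Clone 2, 57.2 in Clone 3 and 50.7 in Clone 4. SLC38A2 (chromosome 12, 46751970 to 46766645), which imports small neutral amino acids such as alanine and glutamine, had 56.2, 57.5, 62.8 and 79.2 in the vehicle, imatinib, nilotinib and GNF-2 populations. Its clones had 137, 98.01, 108 and 161 in the order 1 to 4, so that every clone exceeded every population. The leucine carrier SLC7A5 and its heavy chain SLC3A2 were both lowest in the imatinib population (120.4 and 83.8) and highest in Clone 1 (264 and 231).

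Charging genes had ranges of 0.43 (EPRS) to 2.14 (WARS) on log2(FPKM + 1). The imatinib population was the lowest library for 6 of the 10. The nilotinib population was lowest for 2, IARS and XPOT, and Clone 2 for 2, GARS and EPRS. The transporters had ranges of 1.13 to 2.40 and the synthesis enzymes of 0.26 to 2.28. Aminoacyl-tRNA synthetases attach each amino acid to its transfer RNA, and XPOT exports transfer RNA from the nucleus. WARS, for tryptophan, had the widest range, with 28.95 in vehicle, 16.5 in imatinib, 23.2 in nilotinib, 51.2 in GNF-2, 56.9 in Clone 1, 22.5 in Clone 2, 51.7 in Clone 3 and 76.2 in Clone 4. MARS (chromosome 12, 57881076 to 57911334) had 35.4, 24.7, 42.6 and 68.1 in the vehicle, imatinib, nilotinib and GNF-2 populations and 89.8, 43.96, 74.1 and 106 in Clones 1 to 4. SARS, for serine, had 47.4, 39.8, 52.2 and 54.1 in the populations and 104, 50.9, 89.7 and 67.02 in the clones. In each of the 3 the imatinib population was the lowest library and Clone 2 the lowest clone.

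AARS, GARS, IARS, NARS and TARS spanned 1.77-fold (TARS) to 2.46-fold (IARS) between their lowest and highest library, and XPOT 1.86-fold. EPRS, which charges glutamate and proline, differed least, from 98.3 in Clone 2 to 133 in Clone 3, and its imatinib value of 130.4 was among the 3 highest.

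**Figure D3:**
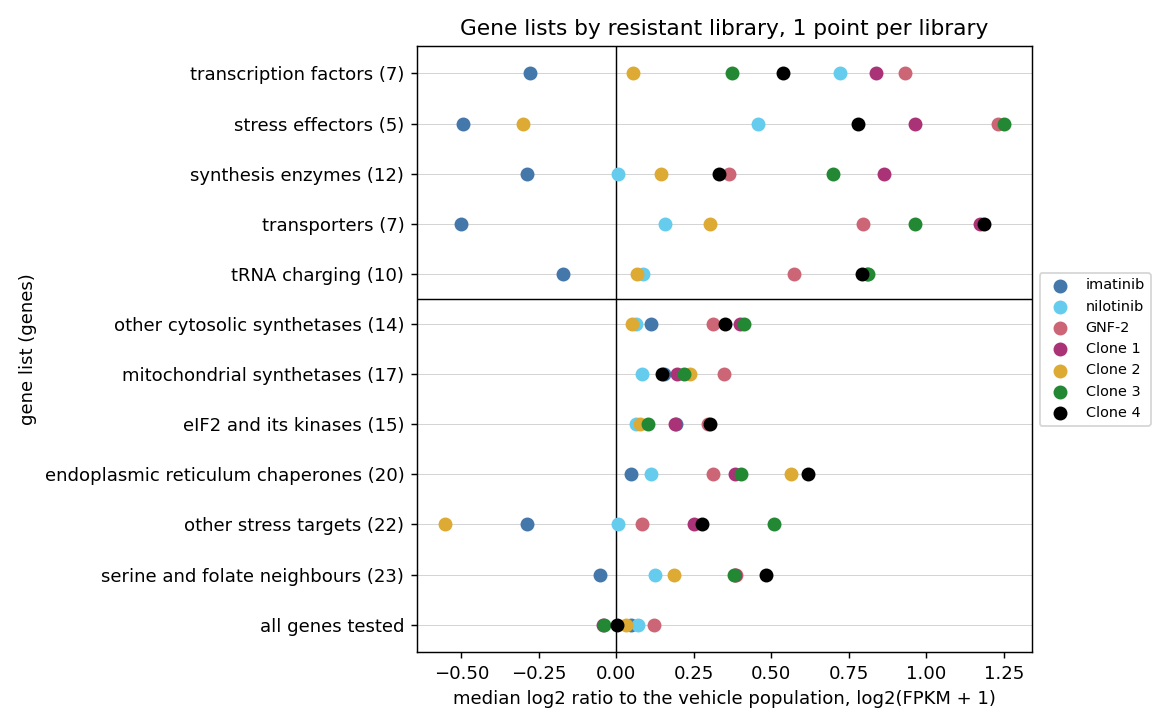
Median log2 ratio to the vehicle population, on log2(FPKM + 1), for each role of the 41 genes (above the line), for related gene lists and for all 11843 genes tested (below), with 1 point per resistant library. Imatinib medians are below 0 in all 5 roles, Clone 2 medians in these roles lie between -0.30 and 0.30, and all-gene medians lie between -0.043 and 0.12.

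Set against the vehicle population, each resistant library has no replicate check, so genes were counted where FPKM differed at least 2-fold with at least 5 in the higher library. In the imatinib population no member was 2-fold higher (0.979% of all tested genes were) and 2, PPP1R15A and STC2, were lower (2.01%). The nilotinib population had 5 higher members (2.65%) and the GNF-2 population 9 (4.46%), with PPP1R15A alone lower in each (1.93% and 3.12%). The 5 in nilotinib were ATF3, CHAC1, SESN2, PSPH and SLC7A11, and the GNF-2 population added CEBPG, TRIB3, PSAT1 and SLC7A1.

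Clone 1 had 18 members 2-fold higher (5.71% of all tested genes), Clone 4 had 14 (9.66%) and Clone 3 had 12 (4.48%). Clone 2 had none (7.51%), and 5 of its members were lower (8.30%): ATF3, CEBPB, PPP1R15A, STC2 and PHGDH. PPP1R15A was the only member lower in Clone 1 (9.76%) and Clone 3 (7.95%), and in Clone 4 (10.6%) it was joined by DDIT3, which is listed at 0. Counted by gene, CHAC1, SESN2, PSPH and SLC7A11 were higher in 5 libraries, the nilotinib and GNF-2 populations and Clones 1, 3 and 4. PPP1R15A was lower in all 7, 21 members were higher in at least 1, and 16 were called in none. These counts over libraries were not made for all genes, and all 7 comparisons share the 1 vehicle library.

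The median member ratio to vehicle, on log2(FPKM + 1), was -0.38 in the imatinib population, 0.15 in nilotinib, 0.66 in GNF-2, 0.87 in Clone 1, 0.055 in Clone 2, 0.74 in Clone 3 and 0.74 in Clone 4. Over all tested genes the same medians were 0.046, 0.071, 0.12, -0.043, 0.032, -0.039 and 0.0021. In the imatinib population 32 of 41 members lay below vehicle, whereas 57.3% of all genes lay above it. In the GNF-2 population 37 members lay above it (60.7% of all genes), and in Clone 1 38 did (46.9%). Clone 3 had 36 members above vehicle (46.8%), Clone 4 had 35 (50.1%) and Clone 2 had 23 (52.0%).

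By role, the effectors had the largest medians in the GNF-2 population (1.23) and Clone 3 (1.25). Transporters led in Clone 1 (1.17) and Clone 4 (1.19). Charging genes had 0.81 in Clone 1, 0.81 in Clone 3 and 0.79 in Clone 4, but 0.066 in Clone 2 and -0.17 in the imatinib population. Synthesis enzymes were at 0.86 in Clone 1 and 0.70 in Clone 3 and at 0.33 in Clone 4.

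The order of libraries recurred from gene to gene. Among the 4 populations, imatinib was the lowest for 28 of 41 members, where 20.0% of all tested genes had it lowest. GNF-2 was the highest population for 34 members (39.0% of all genes), including all 7 transporters and all 10 charging genes. Clone 2 was the lowest of the 4 clones for 33 members (22.4% of all genes), again including all 7 transporters and all 10 charging genes, with 9 of 12 synthesis enzymes and 4 of 5 effectors. Both held at once, imatinib lowest of the populations and Clone 2 lowest of the clones, for 24 members, against 5.16% of all genes.

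Over all 8 libraries the imatinib population was the lowest for 21 members (7.92% of all genes) and Clone 2 for 8 (12.8%). Clone 1 was the highest for 17 (9.38%), Clone 4 for 12 (18.7%) and Clone 3 for 7 (7.70%). Each of these counts rests on single libraries. Among the 15 members with a C/EBP-ATF element in a window, 11 had imatinib lowest of the populations and Clone 2 lowest of the clones, as had 12 of the 20 members whose windows lacked it. The median log2 ratio of Clone 1 to Clone 2 was 1.00 in the former and 0.84 in the latter, a difference that was not tested.

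**Figure D4:**
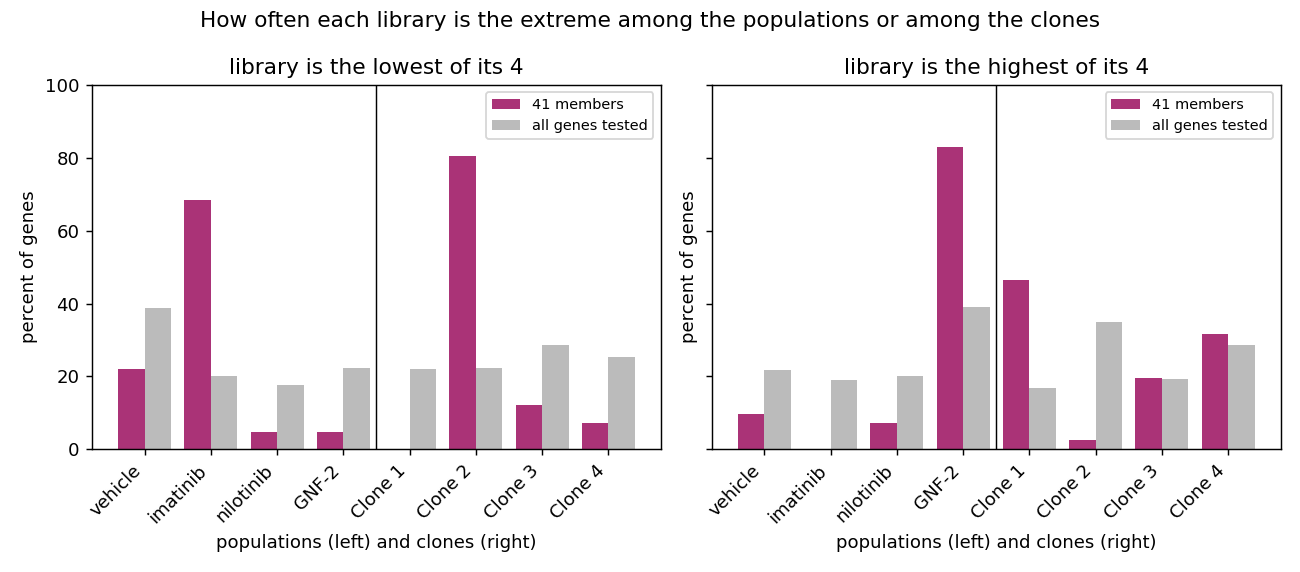
Percent of the 41 genes (purple) and of all 11843 genes tested (grey) for which a library is the lowest (left panel) or the highest (right panel) of the 4 populations or of the 4 clones. Imatinib is lowest for 28 and Clone 2 for 33 of the 41 genes, and the GNF-2 population is highest for 34.

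Clones were also set beside the population of the inhibitor they had been selected with. In Clone 1 against the GNF-2 population no member was 2-fold higher (1.90% of all genes) or lower (7.87%), and the median ratio was 0.24. Clone 2, of the same labelled origin, had no member higher (3.74%) and 14 lower (7.57%), with a median of -0.56 against -0.067 for all genes. The 14 were ATF3, DDIT3, CEBPB, CEBPG, TRIB3, CHAC1, SESN2, ASNS, PSAT1, PHGDH, PCK2, SLC7A11, SLC1A4 and WARS, from all 5 roles.

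Clone 3 differed from the imatinib population in the other direction. There, 19 members were higher (3.79%) and none lower (6.99%), with a median of 0.99 against -0.083 for all genes. Clone 4 had PSPH and SLC38A2 higher (3.45%) and DDIT3, listed at 0, lower (7.82%), with a median of 0.12. Between clones of the GNF-2 lineage, Clone 1 exceeded Clone 2 in 39 of 41 members (41.3% of all genes), 20 of them 2-fold (2.90%), and Clone 4 exceeded Clone 2 in 36 (46.1%), 15 of them 2-fold (5.70%). Clone 4, which resists all 3 compounds, had no member 2-fold above Clone 1 (4.95%) and 2 below (2.72%), DDIT3 and PCK2.

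The first tested comparison set the 3 GNF-2-resistant libraries against the 3 catalytic-resistant ones. Of the 41 members 35 were higher (51.8% of all genes) and 6 lower by the limma estimate on log2(FPKM + 1), with a median difference of 0.29 against 0.012 for all genes. None passed an adjusted p of 0.05 (smallest adjusted p = 0.846), as 0.0338% of all genes did. At an unadjusted p under 0.05 limma gave 2 members, 1 higher (2.55% of all genes) and 1 lower (2.32%), or 4.87% of all genes in both directions. PPP1R15A was at an FPKM of 60.1 ± 13.6 (SD, n = 3) in the GNF-2-resistant and 133 ± 24.9 (SD, n = 3) in the catalytic-resistant group, a log2 difference of -1.14 (SE 0.23, limma adjusted p = 0.846). GPT2 was at 47.9 ± 4.01 (SD, n = 3) and 30.8 ± 4.21 (SD, n = 3), a difference of 0.63 (SE 0.15, limma adjusted p = 0.846). These were also the only members whose groups did not overlap, 1 higher (6.82% of all genes) and 1 lower (4.08%).

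ATF4 (0.26, SE 0.23), TRIB3 (0.34, SE 0.50) and CHAC1 (0.16, SE 0.79) had limma differences that did not pass, with overlapping groups. Each group contained 1 of the 2 low libraries, the imatinib population or Clone 2. Without the imatinib population 20 of 41 members were higher and the median difference was -0.012, and without Clone 2 the count was 39 and the median 0.58. The median was 0.080 without Clone 1 and 0.49 without Clone 3. With clone against population as a term in the model, 34 members were higher and the median was 0.15.

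Against the vehicle library, 36 of 41 members were higher in the GNF-2-resistant group (52.9% of all genes) and 30 in the catalytic-resistant group (53.0%). The median log2 differences were 0.47 and 0.20, against 0.037 and 0.023 for all genes. Both comparisons share that 1 vehicle library. No member passed limma in either, as did 0.0929% and 0.0338% of all genes. PPP1R15A was the only member at an unadjusted p under 0.05, with a log2 difference of -2.48 (SE 0.32, limma adjusted p = 0.115) for GNF-2 resistance and -1.33 (SE 0.32, limma adjusted p = 1) for catalytic resistance. Such a p was held by 11.1% and 2.69% of all genes. In the GNF-2-resistant group 22 members were above vehicle in all 3 libraries (33.8% of all genes) and 2 below in all 3 (26.2%). In the catalytic-resistant group these were 7 (28.8%) and 3 (21.2%). Single libraries moved these values: the catalytic count was 17 members higher, with a median of -0.054, without Clone 3, and 35, with a median of 0.41, without the imatinib population. The GNF-2 median was 0.28 without Clone 1 and 0.72 without Clone 2.

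**Figure D5:**
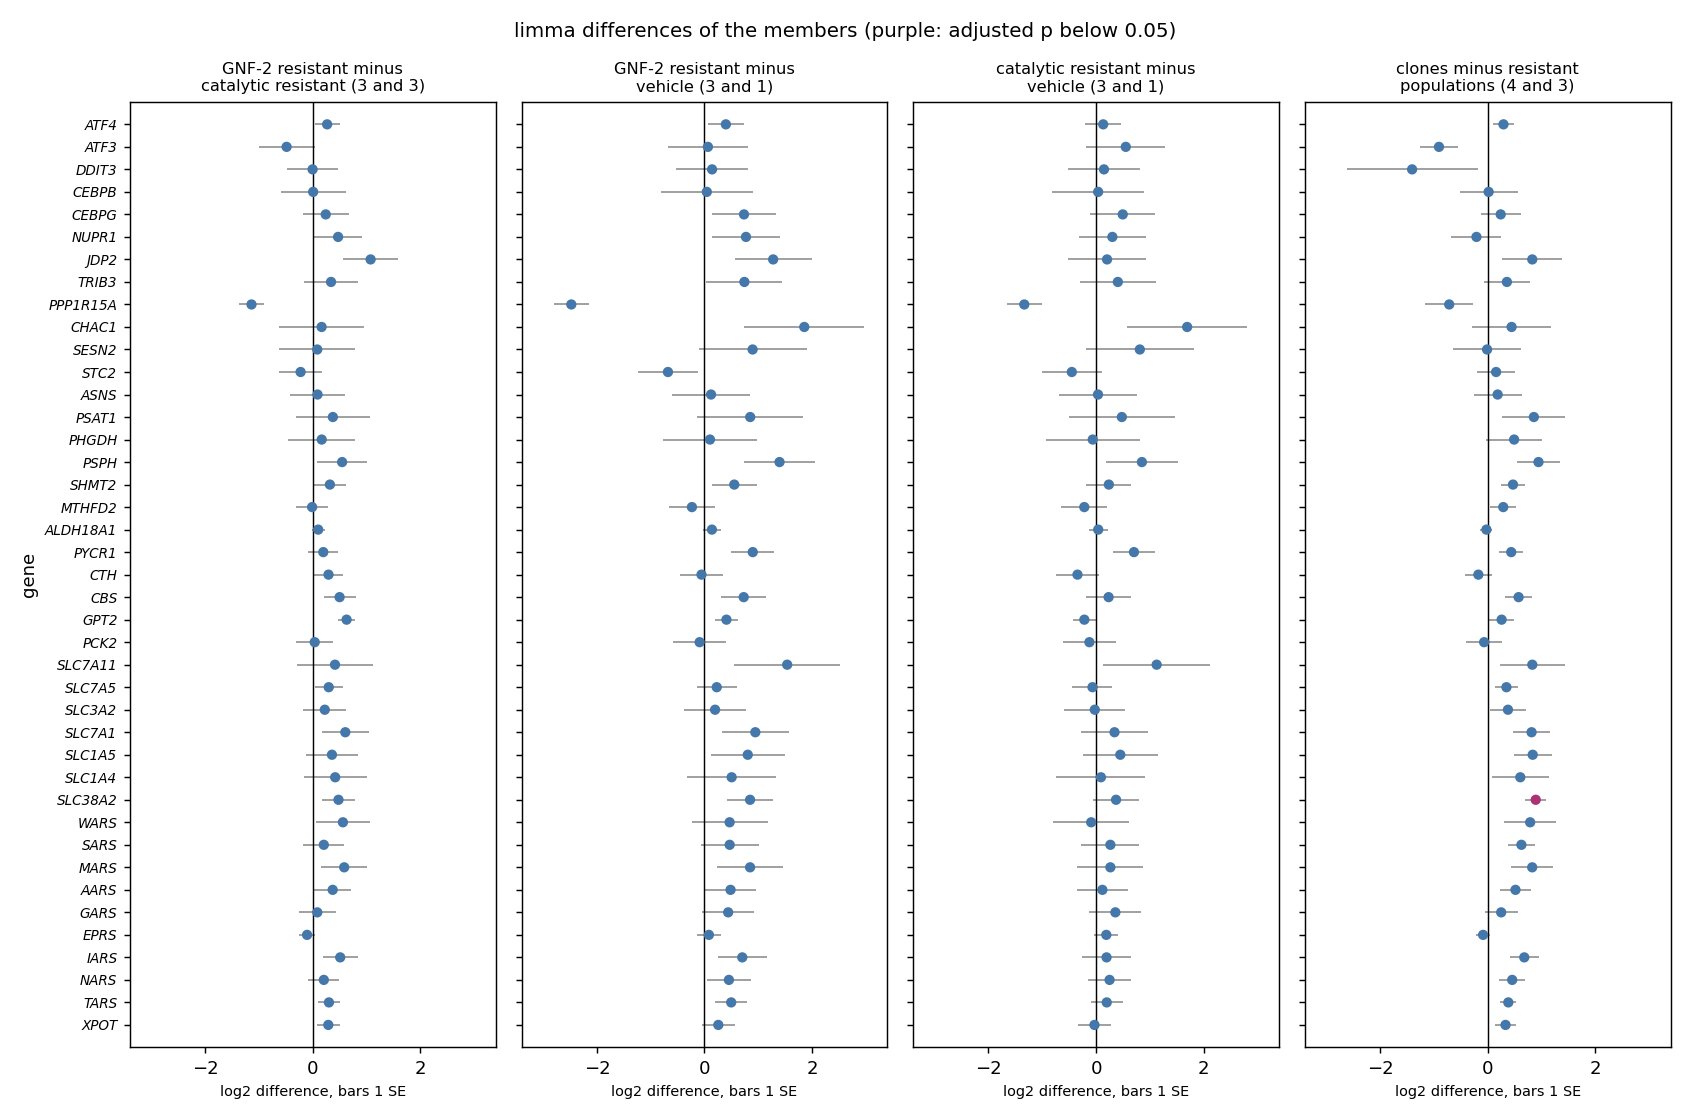
limma log2 differences of the 41 genes on log2(FPKM + 1) in 4 comparisons, with bars of 1 SE and group sizes in the panel titles. SLC38A2 in clones against resistant populations is the 1 value at an adjusted p under 0.05 (purple), and the wide bar of DDIT3 in that panel includes its 0 in Clone 4.

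The 4 clones were then set against the 3 resistant populations, whatever their resistance. Here 32 of 41 members were higher in the clones (42.3% of all genes). The members' median log2 difference was 0.38, while the median of all genes was -0.079. That all-gene median was 0.026 after rescaling by median ratios, a shift of over 0.1, and 36 members were then higher with a median of 0.49. The members' median was 0.20 without the imatinib population, 0.22 without Clone 1, 0.57 without the GNF-2 population and 0.60 without Clone 2. PTPRC (CD45), a leukocyte surface phosphatase among the identity genes, was lower in the clones, at 16.5 to 35.3 against 58.3 to 66.04 in the resistant populations (-1.27, SE 0.25, limma adjusted p = 0.0307), and its part in the members' values was not tested. One member of 41 passed limma, against 7.46% of all genes. SLC38A2 was at 125.7 ± 28.4 (SD, n = 4) in the clones and 66.5 ± 11.3 (SD, n = 3) in the populations, a difference of 0.89 (SE 0.20, limma adjusted p = 0.0403). Its adjusted p over the alternatives ran from 0.0285 without Clone 2 to 0.151 without the nilotinib population. The call was lost when any other single resistant library was left out. The limma adjusted p was then 0.151 (imatinib population), 0.0701 (GNF-2 population), 0.102 (Clone 1), 0.0511 (Clone 3) and 0.0615 (Clone 4). The call was also lost with no filter on low values (adjusted p = 0.131) and with resistance group as a covariate (adjusted p = 0.113).

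At an unadjusted p under 0.05 limma gave 8 members (27.1% of all genes), 7 of them higher (8.55%) and ATF3 lower (18.5%). IARS, TARS, SARS, SLC7A1, PSPH and SLC1A5 were the other 6 higher ones, with log2 differences from 0.38 (TARS) to 0.95 (PSPH). All 7 transporters and 9 of 10 charging genes had estimates above 0, as had 42.3% of all genes. SLC38A2 and TARS were the 2 members whose clones lay entirely above the resistant populations (8.17% of all genes), and ATF3 the 1 that lay entirely below (18.1%).

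Genes around the pathway were examined through related lists. The 14 other cytosolic synthetases and their scaffold proteins had smaller medians than the charging members in Clones 1, 3 and 4: their median ratio to vehicle was between 0.051 (Clone 2) and 0.41 (Clone 3), and none passed limma in any of the 4 comparisons. In clones against resistant populations 10 of the 14 were higher and 4 lower, where 42.3% of all genes were higher. Of the scaffold proteins, EEF1E1 was listed at 0 in 7 libraries and at 93.2 in Clone 2, the 1 value that put it among the 10. AIMP2 was listed at 0 in 2 libraries, the vehicle and imatinib populations. The 17 mitochondrial synthetases lay between 0.085 and 0.35. In the clones 8 of them were higher and 9 lower, and HARS2, for histidine, was lower in clones than in resistant populations (-0.51, SE 0.10, limma adjusted p = 0.0329). Of 15 genes for eIF2, its exchange factor and its kinases, none passed limma in any comparison, and 3 were higher and 12 lower in the clones. EIF2AK3 (PERK), the kinase of the endoplasmic reticulum, was between 6.28 and 9.45, and EIF2AK4 (GCN2), the amino acid sensor, between 17.4 and 23.6.

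Endoplasmic reticulum chaperones, which are induced mainly by the other arms of the unfolded protein response, differed from the members in the place of Clone 2. In 20 tested genes the median ratio to vehicle was 0.048 in the imatinib, 0.11 in the nilotinib and 0.31 in the GNF-2 population. The members had the same order of these populations. In the clones the chaperone median was 0.38 in Clone 1, 0.56 in Clone 2, 0.40 in Clone 3 and 0.62 in Clone 4. In clones against resistant populations 19 of 20 were higher (42.3% of all genes). Of these, limma called SDF2L1 (1.36, SE 0.24, adjusted p = 0.0211), CRELD2 (0.83, SE 0.19, adjusted p = 0.0417) and DNAJB11 (0.59, SE 0.14, adjusted p = 0.0498). SDF2L1 was at 12.6, 14.1, 23.8 and 30.1 in the vehicle, imatinib, nilotinib and GNF-2 populations and at 55.4, 59.4, 49.5 and 66.2 in Clones 1 to 4, with no overlap.

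Of 22 other ATF4 targets tested, which are not among the 41 members, 11 were higher in the clones and 11 lower. In the same comparison 32 of 41 members and 42.3% of all genes were higher. The median ratios of these targets to vehicle were -0.29 in the imatinib, 0.0053 in the nilotinib and 0.084 in the GNF-2 population. In Clones 1 to 4 these medians were 0.25, -0.55, 0.51 and 0.27. As for the members, the imatinib population had the lowest median of the resistant populations and Clone 2 the lowest of the clones. For GNF-2 against catalytic resistance 8 of these targets were higher (51.8% of all genes) and 14 lower, with a median difference of -0.043. For GNF-2 resistance against vehicle 11 were higher (52.9% of all genes) and 11 lower, with a median of 0.011. ERO1L, an oxidase of protein folding, was the 1 gene of that list called in clones against resistant populations (-1.17, SE 0.23, limma adjusted p = 0.0278). Of 23 tested neighbours of the serine and folate pathway 14 were higher in the clones and 9 lower, and AMT of the glycine cleavage system passed as lower (-2.44, SE 0.24, limma adjusted p = 0.00322). AMT was between 5.47 and 7.02 in the populations and at 0.701 in Clone 2 and 0.386 in Clone 4, and was listed at 0 in Clones 1 and 3. In the 3 other comparisons no gene of these lists passed limma.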

How the data were processed

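Gene-level FPKM were computed by the authors and deposited as 1 table of 8 libraries; the header does not name the unit, which was taken from the tools and values. Per the submitters' processing notes they used TopHat 1.3 and Cufflinks 1.3 on GRCh37. Entries with a missing value (70) were left out, and no read counts were used. The members and gene lists were chosen with earlier results of these data known. On log2(FPKM + 1), for the 11843 genes averaging an FPKM of 1 or more, limma (3.58.1, in R 4.3.3) was fitted with a mean for each resistance group (4 residual degrees of freedom), or 1 per kind of library (5 for clones against populations), with a variance trend. Tests were two-sided with Benjamini-Hochberg adjusted p of 0.05, and single libraries are assumed to vary like the replicated groups. The fit was tested on simulated data. Values in every library were given for members past the test, called in at least 3 of 7 comparisons with vehicle, preset (ATF4, ATF3, DDIT3, TRIB3, CHAC1, ASNS) or among the 3 widest ranges of a role, and for GPT2, chosen after its values were seen. From related lists, up to 4 genes past the test were named, and the 2 kinases and the 0 values in addition. Figures used Python 3.11.15, numpy 2.4.6, pandas 2.3.3 and matplotlib 3.10.9. Promoters came from RefSeq (GRCh38.p14). Alternatives were pseudocounts of 0.1 and 5, other filters, rescaling, quantile normalization, no trend, an adjusted p of 0.01 and an added covariate. Single resistant libraries were also left out. Clone 4 was left out only for clones against resistant populations, and the vehicle library never.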

Additional observations from a re-analysis of the deposited data

Results flagged for a closer look

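GPT2 lay above the vehicle population in all 3 GNF-2-resistant libraries and below it in all 3 catalytic-resistant ones, and the 2 groups differed by 0.63 on log2(FPKM + 1). That the groups lie on opposite sides of a single vehicle library was not tested as such, and the difference did not pass limma (adjusted p = 0.846).

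For each of the 41 genes the 4 clones were searched, on FPKM and not on its log, for 1 clone far from the other 3. Dixon's 95% critical value for 4 samples flags such a clone in about 1 of 20 groups by chance. That value was exceeded for 7 genes, 6 of them because Clone 2 was far below. The search was not run over all tested genes, so no share stands beside this count. These were ATF3 at an FPKM of 4.59, SESN2 at 2.86, PSAT1 at 67.7, SLC7A11 at 3.63, AARS at 78.7 and GARS at 83.2 in Clone 2. The seventh was ATF4, far above in Clone 1 at 813. Clone 2 is 1 library of 1 clone, so the same library stands behind all 6 values.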

How the results depend on the processing

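Each condition has 1 library and 4 or 5 residual degrees of freedom carry the spread, so missing the threshold does not show that a member did not differ. Depth is known only roughly, and a value under an FPKM of 1 rests on few fragments. No paired analysis was possible because the replicate numbers follow the order of the samples and the labels give none.

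The number of genes called for GNF-2 resistance against vehicle was 11, and became 253 with no filter on low values, 7 at a mean FPKM of at least 5, 0 with genes above 0 in all libraries and 3 at an adjusted p of 0.01. For catalytic resistance against vehicle 4 became 243, 2, 0 and 0 under these, and 1 after rescaling by median ratios or quantile normalization. The 4 genes of GNF-2 against catalytic resistance became 1, 2 and 0 under the first 3. For clones against resistant populations 883 became 320 with no filter, 120 at an adjusted p of 0.01 and 238 with resistance group as a covariate, and the number of members called went from 1 to 0 under each of these 3. Rescaling lowered the members at least 2-fold above vehicle in the GNF-2 population from 9 to 5.

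Leaving out 1 library at a time gave between 1 and 8 genes called in GNF-2 against catalytic resistance, 1 and 12 in GNF-2 resistance against vehicle, 0 and 1 in catalytic resistance against vehicle and 125 and 1100 in clones against resistant populations, where the members called ranged from 0 to 2. Members higher ranged from 20 to 39, 31 to 37, 17 to 35 and 26 to 35 in the same order. The vehicle library was never left out. No direction of a named called gene reversed, and the members called in the first 3 comparisons were 0 under every alternative run.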
